A study of Mus musculus with 4 samples.

Results

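The genes described here are 9 mouse genes that drive or accompany the step by which a neural progenitor becomes a neuron: Neurog2, Neurod1, Eomes, Insm1, Hes6, Sox4, Sox11, Myt1 and Vxn. They were chosen by name, and all 9 were found by gene ID among the 17621 genes of the deposited files. RNA came from primary neural stem cells cultured from newborn mouse cortex, and the question was how depletion of the nucleoporin Seh1 alters their expression program. The 4 libraries make up 4 groups of 1 library each: day 3 iKO, day 3 Ctrl, day 0 iKO and day 0 Ctrl. All 4 carry the genotype label seh1 f/f, and the iKO libraries carry cmv-cre-ert as well, a tamoxifen-inducible Cre under the broadly active CMV promoter. Day 0 cells were in growth medium, which the culture description gives as holding EGF and bFGF, and day 3 cells had both factors withdrawn so that they would differentiate. The sources used here do not give the inducer treatment, the deleted exons or whether animals were pooled.

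Proneural basic helix-loop-helix (bHLH) factors such as Neurog2 pair with E proteins, bind short E-box words in DNA and switch on Notch ligands, cytoskeletal genes and further transcription factors of the neuronal program. In the embryonic cortex this runs through intermediate progenitors, which are marked by Eomes and Insm1, to young neurons, in which Neurod1, Sox4, Sox11 and Myt1 act. Hes and Id proteins, which respond to Notch and BMP signals, hold the same factors in check. Several of these genes are also used in other lineages, and Myt1 and the SoxC genes are found in oligodendrocyte progenitors too.

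The libraries held 19611747 to 21040586 expected counts over genes, and levels are in CPM, a count scaled to a common library size after TMM normalisation. Seh1l, the targeted gene, was at 11.0 CPM in day 3 iKO and 33.2 CPM in day 3 Ctrl cells, 3.01-fold lower (95% interval 2.58 to 3.54). It was at 19.2 CPM in day 0 iKO and 40.3 CPM in day 0 Ctrl cells, 2.10-fold lower (1.86 to 2.37). Since all exons are counted, RNA that lacks a deleted part may be included. With 1 library per group no comparison has a replicate check, no p-value was computed, and every interval below is a 95% interval of counting error only. In these bulk libraries, fewer cells of a type and less RNA per cell cannot be told apart. Markers of the labelled cell type were present at both days: the 8 stem cell markers summed to 4512 CPM in day 3 iKO, 4744 CPM in day 3 Ctrl, 5787 CPM in day 0 iKO and 5642 CPM in day 0 Ctrl cells, with none at 0. Vim and Fabp7 made up most of these sums, at 2156 and 1367 CPM in day 3 iKO and 1125 and 2368 CPM in day 3 Ctrl cells. In each genotype 5 of the 8 were above and 3 below their day 0 level at day 3. Nes was among the 3, at 4.01-fold lower in iKO and 3.61-fold lower in Ctrl cells. The 11 astrocyte markers summed to 24362 CPM in day 3 iKO, 17630 CPM in day 3 Ctrl, 3565 CPM in day 0 iKO and 2274 CPM in day 0 Ctrl cells, and Apoe alone held 12096 CPM of the day 3 iKO sum.

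Promoter sequence was found for 7 of the 9 genes, as 10 windows of 300 bases in the RefSeq table of GRCm38.p6, each running from 250 bases before a start site to 50 after it. The genes with no window here are Insm1 and Vxn. The 4 windows below are shown because Neurog2 and Myt1 were far apart between the day 3 libraries and hold a SOX word, while Sox4 and Hes6 were the most abundant of the 9 per length at day 3 and hold an E-box. Capitals mark each E-box (CANNTG, its own reverse complement) and each AACAAT word of SOX factors on either strand (read as ATTGTT on the other). No E-box overlaps a SOX word in them. The Neurog2 window lies at chr3:127632886-127633185, plus strand. The first Myt1 window lies at chr2:181763082-181763381, plus strand. The Sox4 window lies at chr13:28953650-28953949, minus strand. The second Hes6 window lies at chr1:91413173-91413472, minus strand, at the start of the transcript model that held 98.8% to 99.5% of the Hes6 counts in each library.
Neurog2: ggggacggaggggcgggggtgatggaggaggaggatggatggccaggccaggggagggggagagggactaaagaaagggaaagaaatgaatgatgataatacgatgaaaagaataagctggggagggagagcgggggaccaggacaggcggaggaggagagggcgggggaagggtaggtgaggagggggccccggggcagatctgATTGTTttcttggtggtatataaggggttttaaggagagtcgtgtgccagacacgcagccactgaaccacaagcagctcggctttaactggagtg
Myt1: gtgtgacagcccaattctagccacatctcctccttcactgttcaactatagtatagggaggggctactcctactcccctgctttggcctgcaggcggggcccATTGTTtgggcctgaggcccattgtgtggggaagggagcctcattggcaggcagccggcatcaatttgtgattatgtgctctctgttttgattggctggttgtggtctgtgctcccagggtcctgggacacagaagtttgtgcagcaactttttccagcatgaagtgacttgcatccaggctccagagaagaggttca
Sox4: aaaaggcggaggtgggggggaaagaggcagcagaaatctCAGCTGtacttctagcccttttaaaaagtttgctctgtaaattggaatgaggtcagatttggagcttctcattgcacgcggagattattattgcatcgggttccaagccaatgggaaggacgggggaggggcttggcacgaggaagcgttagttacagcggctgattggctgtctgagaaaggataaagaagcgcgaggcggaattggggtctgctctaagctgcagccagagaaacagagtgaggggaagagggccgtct
Hes6: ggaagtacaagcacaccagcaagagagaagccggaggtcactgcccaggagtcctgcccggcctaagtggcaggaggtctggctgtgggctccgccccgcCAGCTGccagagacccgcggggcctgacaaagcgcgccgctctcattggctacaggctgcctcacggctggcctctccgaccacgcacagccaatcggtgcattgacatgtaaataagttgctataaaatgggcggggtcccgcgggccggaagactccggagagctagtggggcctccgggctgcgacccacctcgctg

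The AACAAT word stood 45 bases before the start site of Neurog2 and 148 bases before that of Myt1, and in no other of the 10 windows; 10.7% of all 32851 promoters in the table hold it. The E-box in the Sox4 window, CAGCTG, stood 211 bases before the start and that in the second Hes6 window, also CAGCTG, 150 bases before it. An E-box was in 7 of the 10 windows, belonging to 5 of the 7 genes, against 72.3% of all promoters. The E-box form CAGATG, or on the other strand CATCTG, which Neurog2 and Neurod1 bind, was in 0 of the 10 windows and in 17.2% of all promoters. The N-box CACNAG of Hes repressors (CTNGTG on the other strand) was in 6 of 10 windows and 42.5% of all. TGGGAA, read by the Notch factor RBPJ (TTCCCA on the other strand), was in 2 windows, those of Sox4 and the third Myt1 start, and in 25.6% of all promoters. AACAAAG, a second SOX word that reads as CTTTGTT on the other strand, was in 1 window and 5.85% of all, and AAAGTTT, the core word of Myt1 that reads there as AAACTTT, in 2 windows and 4.74% of all. These matches describe letters in short windows and are not shown to be bound.

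Neurog2 (gene ID 11924, chromosome 3, 127632733 to 127635636, plus strand, 2 exons), the proneural factor of cortical excitatory neurons, was near the limit of detection in 3 of the 4 libraries (gene coordinates here and below are those of RefSeq on GRCm38.p6, the build the submitters name as mm10, and exon numbers those of GENCODE). It had 0.212 CPM in day 3 iKO and 2.39 CPM in day 3 Ctrl cells, and 0.275 CPM in day 0 iKO and 0.148 CPM in day 0 Ctrl cells. These levels rest on 4, 48, 6 and 3 counts in that order of libraries. The day 3 Ctrl library thus stood apart, and the intervals of the other 3 overlapped. At day 3 the iKO level was 11.3-fold lower than Ctrl (4.12 to 43.0), and at day 0 the ratio of iKO to Ctrl was 1.87 (0.398 to 11.5). With a mean of 0.756 CPM the gene was under the minimum of 1 CPM and entered none of the counts below.

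Neurod1 (gene ID 18012, chromosome 2, 79452637 to 79456636, minus strand, 2 exons), a bHLH factor that acts after the neurogenins in neurons, was highest in a different library. It had 0.0530 CPM in day 3 iKO and 0.199 CPM in day 3 Ctrl cells, and 3.26 CPM in day 0 iKO and 0.984 CPM in day 0 Ctrl cells, from 1, 4, 71 and 20 counts. Both day 3 libraries were below both day 0 libraries, and the day 0 iKO library was the highest. At day 0 the gene was 3.31-fold higher in iKO than in Ctrl (1.99 to 5.74), while at day 3 it was 3.75-fold lower with an interval of 0.371 to 185 that spans 1. It passed the minimum with a mean of 1.12 CPM, which rests on the day 0 iKO library. On the same strand it lies within Cerkl, a ceramide kinase relative, which was at 0.358 CPM in day 3 iKO, 0.114 CPM in day 3 Ctrl, 5.28 CPM in day 0 iKO and 4.36 CPM in day 0 Ctrl cells. The sources used here do not say how reads shared by these genes were counted.

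Eomes (gene ID 13813, chromosome 9, 118478186 to 118486132, plus strand, 6 exons), the T-box factor of intermediate progenitors also known as Tbr2, was low in every library. Its levels were 0.743 CPM in day 3 iKO, 1.21 CPM in day 3 Ctrl, 0.691 CPM in day 0 iKO and 0.750 CPM in day 0 Ctrl cells, from 14 to 24 counts. No neighbours in the order of these levels differed beyond counting error. The day 3 iKO level was 1.63-fold lower than Ctrl (0.799 to 3.36) and the day 0 iKO level 1.08-fold lower (0.488 to 2.35), with both intervals spanning 1. A mean of 0.849 CPM left Eomes out of the counts as well.

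Insm1 (gene ID 53626, chromosome 2, 146221997 to 146225020, plus strand, a single exon), a zinc finger factor that promotes the formation of intermediate progenitors, was much more abundant. It had 9.62 CPM in day 3 iKO and 20.3 CPM in day 3 Ctrl cells, against 59.5 CPM in day 0 iKO and 52.7 CPM in day 0 Ctrl cells. Each step in the order of levels exceeded counting error, with both day 0 libraries above both day 3 libraries. The iKO level was 2.11-fold lower than Ctrl at day 3 (1.76 to 2.51) and 1.13-fold higher at day 0 (1.04 to 1.22). Compared with day 0, the day 3 level was 6.18-fold lower in iKO cells (5.28 to 7.24) and 2.60-fold lower in Ctrl cells (2.32 to 2.93).

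Hes6 (gene ID 55927, chromosome 1, 91411483 to 91414038, minus strand, 4 exons) encodes a Hes family protein that, unlike Hes1 and Hes5, favours neuronal differentiation. It was the most even of the abundant members, with 134 CPM in day 3 iKO and 111 CPM in day 3 Ctrl cells, and 92.2 CPM in day 0 iKO and 89.6 CPM in day 0 Ctrl cells. Both day 3 libraries were above both day 0 libraries, and those at day 0 did not differ beyond counting error. Hes6 was the only one of the 7 members compared that was higher in iKO cells at day 3, by 1.20-fold (1.14 to 1.28). Its day 0 ratio of iKO to Ctrl was 1.03 (0.966 to 1.10).

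**Figure D1:**
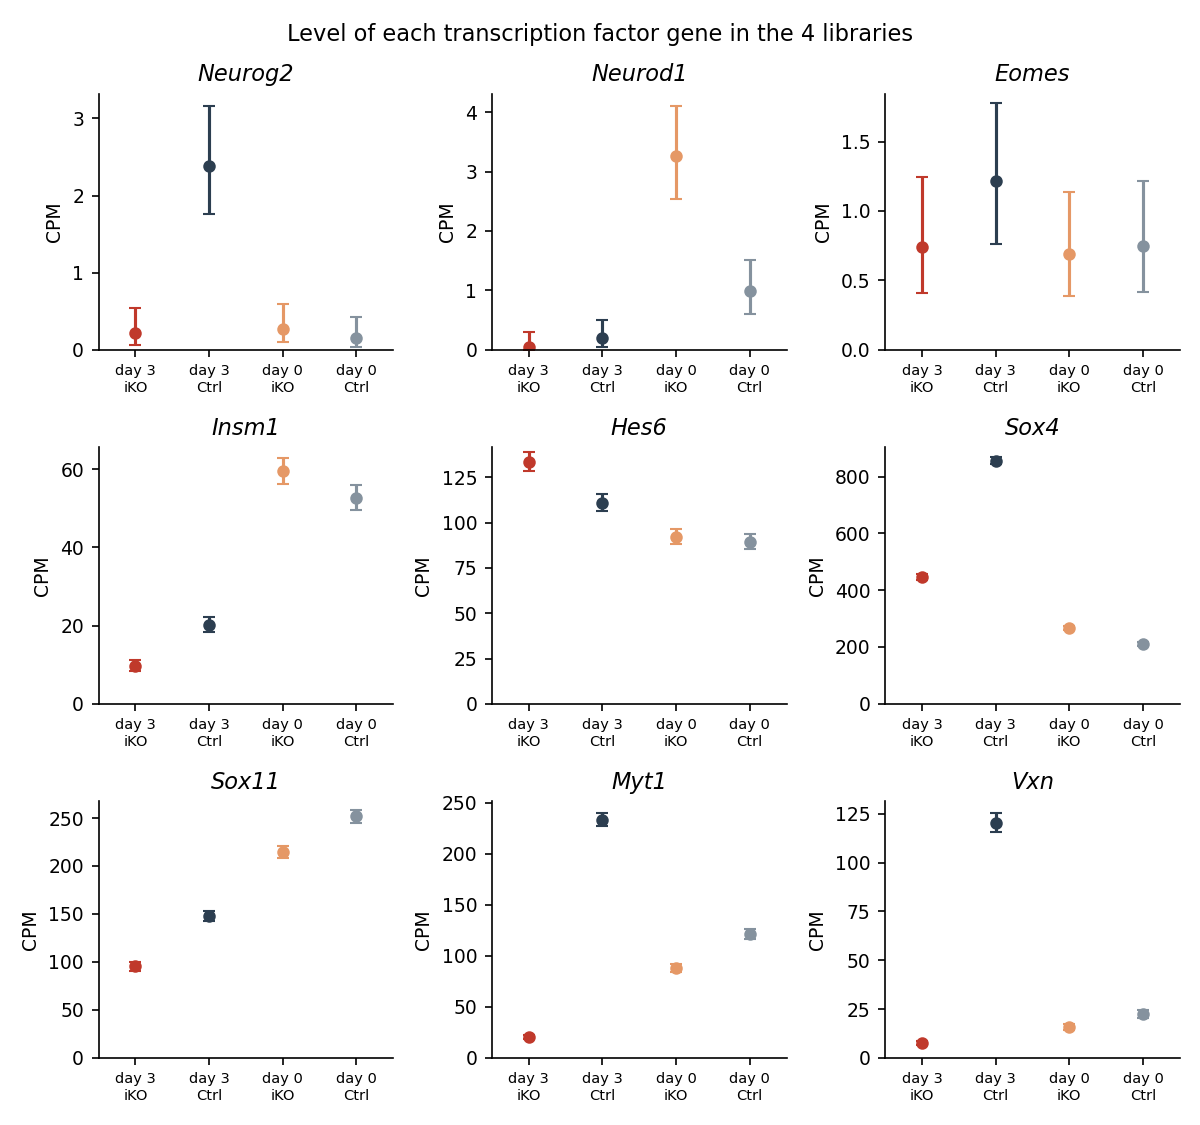
Level of each of the 9 genes in CPM (vertical axis, from 0, with its own range in each panel) in the day 3 iKO, day 3 Ctrl, day 0 iKO and day 0 Ctrl libraries. Points are single libraries and bars are 95% Poisson intervals of counting error. Vxn reaches 121 CPM and Neurog2 2.39 CPM in the day 3 Ctrl library, each at least 5 times its level in any other library, while Hes6 varies only between 89.6 and 134 CPM.

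Sox4 (gene ID 20677, chromosome 13, 28948919 to 28953699, minus strand, a single exon) and Sox11 (gene ID 20666, chromosome 12, 27334268 to 27342718, minus strand, a single exon) are SoxC genes whose factors activate genes such as Tubb3 in young neurons. Sox4 had 446 CPM in day 3 iKO and 856 CPM in day 3 Ctrl cells, and 267 CPM in day 0 iKO and 211 CPM in day 0 Ctrl cells. Sox11 had 95.3 CPM in day 3 iKO and 147 CPM in day 3 Ctrl cells, and 214 CPM in day 0 iKO and 252 CPM in day 0 Ctrl cells. The pair ran in opposite directions with time: both day 3 libraries were above both day 0 libraries for Sox4 and below both for Sox11. All neighbours in both orders differed beyond counting error.

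Between genotypes, Sox4 was 1.92-fold lower in iKO than in Ctrl cells at day 3 (1.87 to 1.97) and 1.26-fold higher at day 0 (1.21 to 1.31). Sox11 was lower at both days, by 1.55-fold at day 3 (1.46 to 1.64) and by 1.17-fold at day 0 (1.13 to 1.22). Between days, Sox4 was 1.67-fold higher at day 3 in iKO cells (1.62 to 1.73) and 4.06-fold higher in Ctrl cells (3.93 to 4.20). Sox11 was 2.25-fold lower at day 3 in iKO cells (2.13 to 2.38) and 1.71-fold lower in Ctrl cells (1.63 to 1.79). On the per-length scale of the deposited FPKM, the level of Sox4 was 13.5 times that of Sox11 in day 3 iKO and 16.7 times in day 3 Ctrl cells, and 3.57 times in day 0 iKO and 2.40 times in day 0 Ctrl cells. The excess of Sox4 over Sox11 was thus larger at day 3 in both genotypes.

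Myt1 (gene ID 17932, chromosome 2, 181763332 to 181827775, plus strand, 22 or 23 exons) encodes a zinc finger factor that cooperates with proneural factors in Xenopus neurogenesis and was named for its binding to a myelin gene promoter. Vxn (gene ID 76982, chromosome 1, 9601267 to 9627142, plus strand, 6 exons) encodes vexin, which promotes neurogenesis in Xenopus and is not known as a DNA-binding protein. Myt1 had 20.4 CPM in day 3 iKO and 233 CPM in day 3 Ctrl cells, and 88.3 CPM in day 0 iKO and 122 CPM in day 0 Ctrl cells. Vxn had 7.47 CPM in day 3 iKO and 121 CPM in day 3 Ctrl cells, and 15.6 CPM in day 0 iKO and 22.4 CPM in day 0 Ctrl cells. Both genes had the same order of libraries, with day 3 Ctrl highest, day 0 Ctrl next, then day 0 iKO, and day 3 iKO lowest, and each step exceeded counting error. Neurod1, Sox4, Eomes and Vxn each overlap a noncoding gene on the opposite strand that was not analysed here, and whether counting used strand is not given, so reads of the pairs cannot be told apart.

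At day 3, Vxn was 16.1-fold lower in iKO than in Ctrl cells (13.6 to 19.2) and Myt1 11.5-fold lower (10.3 to 12.7). At day 0 the differences were in the same direction and smaller, 1.43-fold for Vxn (1.24 to 1.66) and 1.38-fold for Myt1 (1.30 to 1.46). In Ctrl cells the day 3 level was above the day 0 level, by 5.39-fold for Vxn (4.87 to 5.97) and 1.92-fold for Myt1 (1.83 to 2.01). In iKO cells it was below, by 2.09-fold for Vxn (1.71 to 2.56) and 4.33-fold for Myt1 (3.89 to 4.85). These 2 genes were thus on opposite sides of their day 0 level in the day 3 libraries of the genotypes. The day 3 Ctrl library enters both the genotype comparison at day 3 and the day comparison in Ctrl cells, so the 2 ratios of a gene that is high in it are not independent.

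The counts of Myt1 are spread over 13 RefSeq transcript models, and the model to which reads were assigned differed between libraries. At 0.5 expected counts or more there were 5 models in day 3 iKO, 12 in day 3 Ctrl and 9 in each day 0 library. NM_001171615.1, which starts at the first Myt1 window shown above, was listed at 0 in day 3 iKO and at 1464 expected counts in day 3 Ctrl cells, and at 1144 in day 0 iKO and 827 in day 0 Ctrl cells. NM_008665.4, which in GENCODE starts at position 181767042 on the same chromosome, was listed at 0 in day 3 iKO and 1015 in day 3 Ctrl cells, and at 0 in day 0 iKO and 517 in day 0 Ctrl cells. XM_006500577.3 held 192 in day 3 iKO, 261 in day 3 Ctrl, 0 in day 0 iKO and 763 in day 0 Ctrl cells. Reads shared by models are divided by estimate, so a model listed at 0 is not shown to be absent, and only the gene sums were compared.

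**Figure D2:**
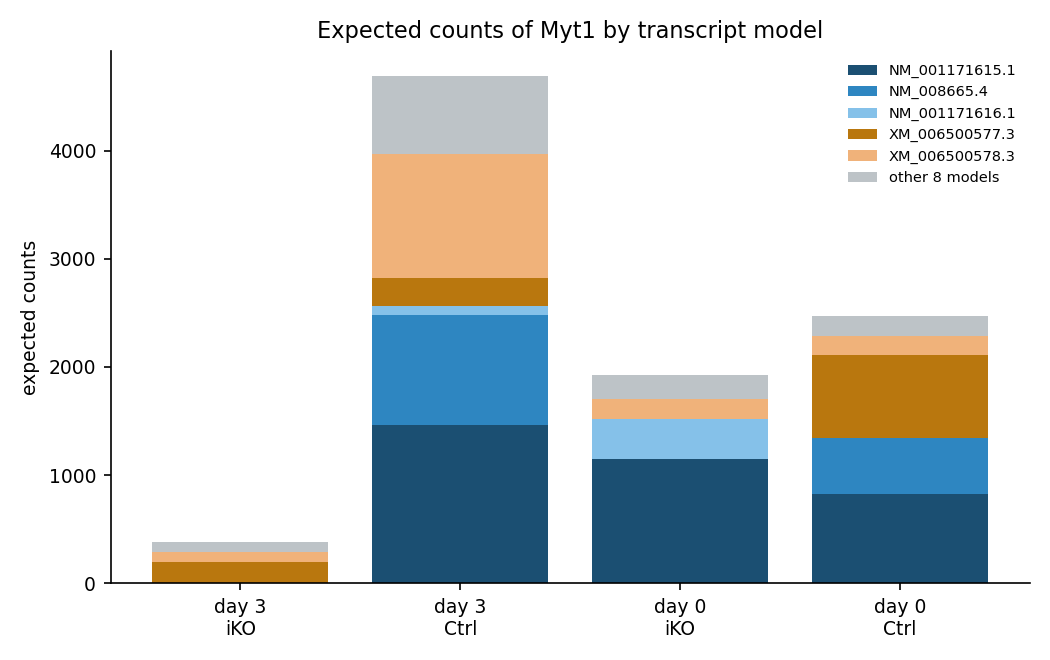
Expected counts of Myt1 (vertical axis, from 0) in the 4 libraries, stacked by RefSeq transcript model, with the 5 models of highest count in any 1 library named and the other 8 pooled. The day 3 iKO bar is the shortest at 384 counts and the day 3 Ctrl bar the tallest at 4689, and NM_001171615.1 has counts in 3 of the 4 bars.

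Genes were called higher or lower past a 2-fold threshold on log2(CPM + 1) values, and 12976 genes whose mean over the libraries reached 1 CPM were compared, 7 of the 9 members among them. For day 3 iKO against day 3 Ctrl, 3 of the 7 were lower (Insm1, Myt1 and Vxn), against 4.78% of all compared genes, and 0 were higher, against 6.28%. On that scale the log2 ratio was -3.84 for Vxn and -3.45 for Myt1, and the median was -0.97 over the 6 members apart from Neurod1, beside -0.01 for all compared genes. Neurod1 is set apart in these summaries because it reached the minimum only through its day 0 iKO level, so that its place past a threshold in a comparison with that library follows from the filter. Insm1 lies at the threshold and passed it under 5 of 8 settings (that reported and 7 alternatives), and Sox4, just short of it at -0.94, passed under 2 of 8. Sox11 was at -0.62, Neurod1 at -0.19 and Hes6 at 0.27.

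For day 0 iKO against day 0 Ctrl, 0 of these 6 members were higher, against 2.67% of all compared genes, and 0 were lower, against 0.331%. Their median log2 ratio was -0.09 beside -0.06 for all compared genes. Neurod1, at 1.10, was past the threshold; it was under the threshold with a pseudocount of 5 CPM and was not compared with a minimum of 5 CPM or on deposited FPKM. The 6 members lay between -0.49 for Vxn and 0.34 for Sox4.

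**Figure D3:**
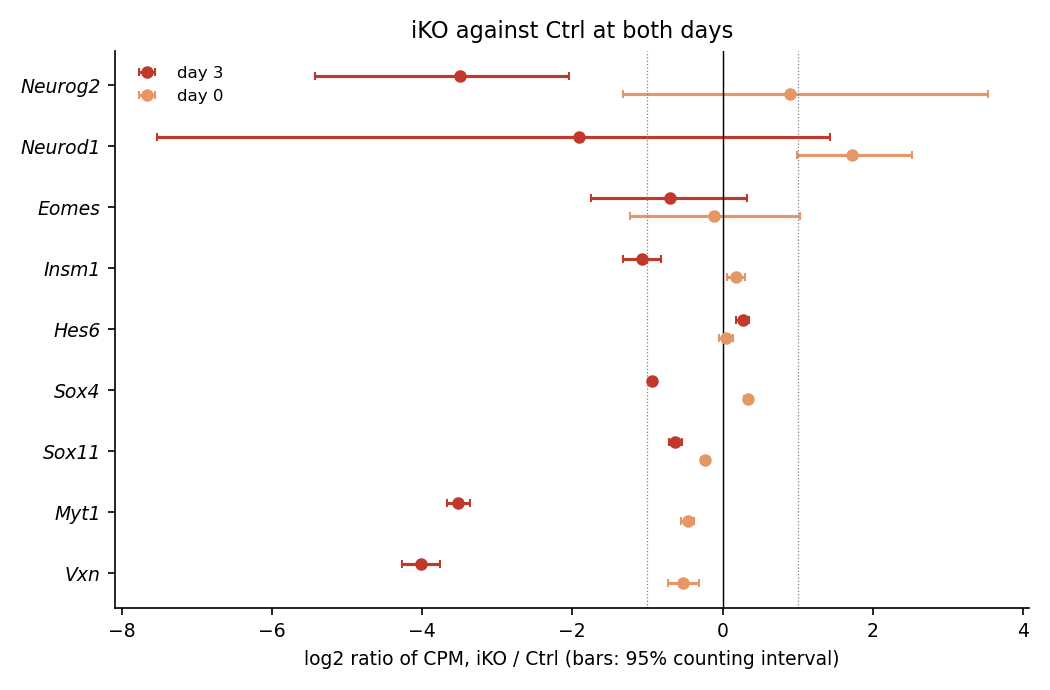
Log2 ratio of CPM without pseudocount, iKO over Ctrl (horizontal axis), for each of the 9 genes at day 3 (upper point) and day 0 (lower point), with 95% intervals of counting error as bars and dotted lines at 2-fold. At day 3 the points of Vxn, Myt1 and Neurog2 lie farthest to the left, and at day 0 the 6 abundant genes all lie within 2-fold.

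For day 3 against day 0, 0 of the 6 members were higher in iKO cells, against 11.2% of all compared genes, and 3 were lower (Insm1, Sox11 and Myt1), against 11.5%. Vxn, just short of the threshold at -0.97 in iKO cells, passed it under 2 of 8 settings. In Ctrl cells 2 were higher (Sox4 and Vxn), against 14.6%, and 1 was lower (Insm1), against 15.1%. Myt1, just short of the threshold at 0.93 in Ctrl cells, passed it under 1 of 8 settings. The median log2 ratio of the 6 was -1.07 in iKO cells beside -0.01 for all compared genes, and 0.62 in Ctrl cells beside -0.02. The all-gene split in iKO cells, 1459 higher and 1486 lower, was 904 higher and 1447 lower on deposited FPKM. Neurod1, also past the threshold in iKO cells, was past it in Ctrl cells only under a pseudocount of 0.1 CPM. Neurod1 was 61.5-fold lower at day 3 in iKO cells (10.7 to 2461, from 1 count) and 4.94-fold lower in Ctrl cells (1.66 to 19.9), and Neurog2 was 16.2-fold higher in Ctrl cells (5.22 to 81.2, from 3 counts at day 0).

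**Figure D4:**
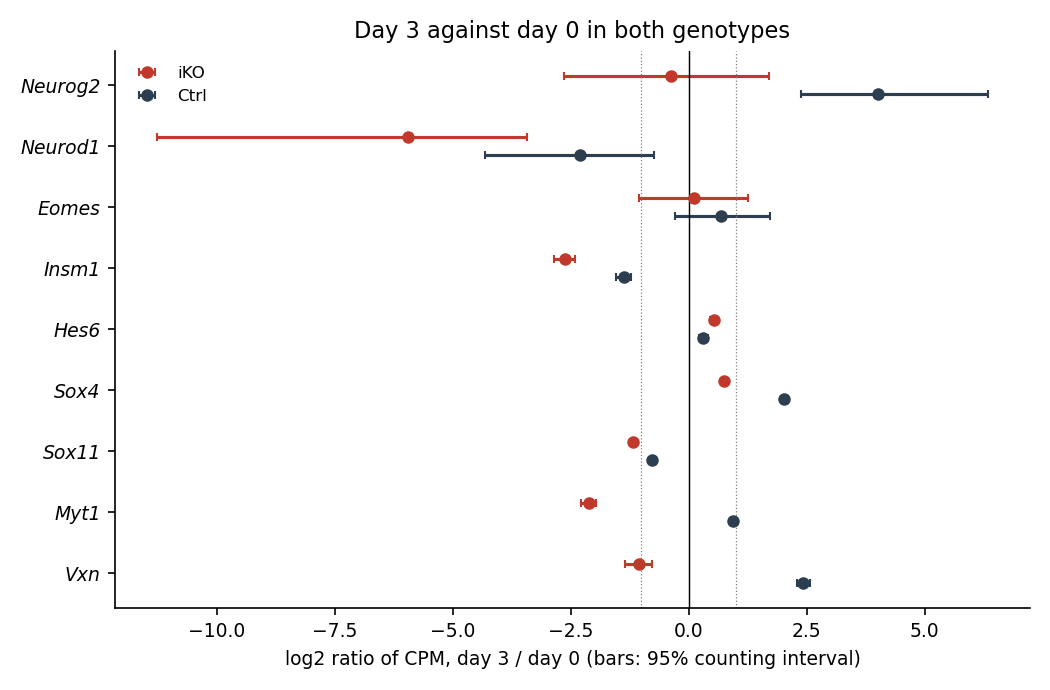
Log2 ratio of CPM without pseudocount, day 3 over day 0 (horizontal axis), for each of the 9 genes in iKO (upper point) and Ctrl (lower point) cells, with 95% intervals of counting error as bars and dotted lines at 2-fold. For Myt1 and Vxn the iKO point lies to the left of 0 and the Ctrl point to the right, and for Insm1 and Sox11 both lie to the left.

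The genotype ratio was set against itself between the days by subtracting the day 0 log2 ratio of iKO to Ctrl from that of day 3. The difference was -1 or below for 4 of the 6 members, against 5.5% of all compared genes, and 1 or above for 0, against 3.71%. It was -3.35 for Vxn, -3.00 for Myt1, -1.28 for Sox4 and -1.17 for Insm1. It was -0.39 for Sox11 and 0.22 for Hes6. Neurod1 was at -1.29, a value that holds the day 0 iKO level through which it was compared. Without a pseudocount, the counting intervals of the difference ran from -3.81 to -3.17 for Vxn, from -3.23 to -2.88 for Myt1, from -1.35 to -1.21 for Sox4, from -1.53 to -0.97 for Insm1 and from -6.88 to -0.39 for Neurod1. With a pseudocount of 5 CPM, 3 members differed by at least 1. Insm1 and Sox4 lay on opposite sides of equality at the 2 days, with both counting intervals clear of 1, which held for 11.3% of all compared genes, and the difference between days was not tested.

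Per length, the 9 genes together had 261 FPKM in day 3 iKO and 486 FPKM in day 3 Ctrl cells, and 239 FPKM in day 0 iKO and 208 FPKM in day 0 Ctrl cells. Sox4 was the largest of the 9 in all 4 libraries, by the least in day 0 Ctrl cells, where it had 68.4 FPKM and Hes6 65.4 FPKM. Sox4 had 144 FPKM in day 3 iKO and 293 FPKM in day 3 Ctrl cells, above 96.9% and 98.7% of all compared genes there. Hes6 had 97.3 FPKM in day 3 iKO and 85.6 FPKM in day 3 Ctrl cells, above 94.4% of compared genes in the Ctrl library. Myt1 had 3.47 FPKM in day 3 iKO and 42.5 FPKM in day 3 Ctrl cells, above 24.4% of compared genes in the iKO and 86.1% in the Ctrl library. Vxn had 2.25 FPKM in day 3 iKO and 38.4 FPKM in day 3 Ctrl cells, above 18.1% and 84.3%. Neurog2, at 1.10 FPKM in day 3 Ctrl cells, was above 10.7%.

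The partners, inhibitors and targets of proneural factors were described from short lists of known members, chosen with earlier results of these data known. For these lists and the marker lists below, the shares of all compared genes are as follows. In iKO against Ctrl cells 6.28% were higher and 4.78% lower at day 3, and 2.67% higher and 0.331% lower at day 0. At day 3 against day 0, 11.2% were higher and 11.5% lower in iKO cells, and 14.6% higher and 15.1% lower in Ctrl cells. Of 11 listed targets 10 were compared, and at day 3 in iKO against Ctrl cells 7 of them were at least 2-fold lower and 1 higher, with a median log2 ratio of -1.50. Dcx, a microtubule protein of migrating neurons, was at 15.4 CPM in day 3 iKO and 147 CPM in day 3 Ctrl cells, 9.57-fold lower (8.49 to 10.9). Dll3, a Notch ligand gene that proneural factors switch on, was at 29.9 CPM in day 3 iKO and 198 CPM in day 3 Ctrl cells, 6.63-fold lower (6.07 to 7.26). The others lower were Mfng, Tubb3, Elavl4, Rnd2 and Dll1, by 2.03-fold to 5.33-fold, and Btbd17 was 2.11-fold higher (1.98 to 2.24). At day 0, 0 of the 10 were higher or lower in iKO against Ctrl cells, with a median of -0.04. For day 3 against day 0, 0 were higher and 2 lower in iKO cells (median -0.26), and 5 were higher and 0 lower in Ctrl cells (median 0.89).

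Of 9 inhibitors, all compared, 1 was higher and 1 lower in iKO than in Ctrl cells at day 3, with a median log2 ratio of 0.39. Id1, which binds E proteins and keeps them from DNA, was at 69.3 CPM in day 3 iKO and 18.2 CPM in day 3 Ctrl cells, 3.82-fold higher (3.40 to 4.30). Hes5, a Notch-driven repressor, was at 15.1 CPM in day 3 iKO and 111 CPM in day 3 Ctrl cells, 7.32-fold lower (6.46 to 8.31), and it was the 1 inhibitor lower at day 0 as well. At day 3 against day 0, 6 were higher and 0 lower in iKO cells (median 1.26), and 4 were higher and 1 lower in Ctrl cells (median 0.75). None of the 3 E protein genes, the dimer partners of proneural factors, differed by 2-fold between iKO and Ctrl cells, with medians of -0.57 at day 3 and -0.30 at day 0. Tcf12 had the largest of these differences, 1.84-fold lower at day 3 (1.79 to 1.90), and Tcf4 the next at day 3, 1.48-fold lower (1.44 to 1.52).

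Among further neuronal bHLH genes of a list of 9, Neurog3 was not analysed here and Bhlhe22 was the only one compared. Bhlhe22, a bHLH gene of cortical neurons, was at 1.38 CPM in day 3 iKO, 1.69 CPM in day 3 Ctrl, 1.47 CPM in day 0 iKO and 0.344 CPM in day 0 Ctrl cells. Of 6 family relatives of the members 2 were compared. On the log2(CPM + 1) scale, 0 of the 2 differed by 2-fold between genotypes at either day. Sox12, the third SoxC gene, was 1.35-fold lower in iKO cells at day 3 (1.27 to 1.43). Myt1l, a neuronal relative of Myt1, had a day 3 log2 ratio of -0.54 on that scale. Without the pseudocount, Myt1l was 2.68-fold lower in iKO than in Ctrl cells at day 3, from 7 and 20 counts. At day 0 Myt1l was 2.52-fold higher, from 46 and 17 counts, and both counting intervals were clear of 1. Myt1l reached the minimum only through its day 0 iKO level of 2.11 CPM. Of 6 progenitor factors that act upstream, 1 was lower and 0 higher at day 3 (median -0.31), namely Gli3 at 2.17-fold lower (1.86 to 2.54), and 0 differed by 2-fold at day 0 (median -0.27). Sox2, a progenitor SOX factor, had the next largest day 3 log2 ratio, -0.33. Pax6, which activates Neurog2 in the cortex, was at 49.3 CPM in day 3 iKO and 60.8 CPM in day 3 Ctrl cells, and at 28.0 CPM in day 0 iKO and 44.1 CPM in day 0 Ctrl cells.

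Markers of several cell types moved with the day 3 genotype difference in Myt1, Vxn and Neurog2, and their part in it was not tested. Of 13 oligodendrocyte lineage genes compared, 11 were lower and 0 higher in iKO cells at day 3 (median log2 ratio -2.28), and the 14 listed summed to 3644 CPM in day 3 iKO and 6073 CPM in day 3 Ctrl cells, with none at 0. Bmp4 and Enpp6 are among the 11 but reached the minimum only through the day 3 Ctrl library, at 6.16 and 25.4 CPM there. Their place among the lower genes thus follows from the filter. Of 13 genes of intermediate progenitors and young neurons, 6 were lower and 0 higher, with 3 above 0 (median -0.74). The list summed to 2120 CPM in day 3 iKO and 3006 CPM in day 3 Ctrl cells, and it shares Dcx, Tubb3 and Elavl4 with the targets. Without the pseudocount, 2 low genes of this list were more than 2-fold higher in iKO cells. Stmn2 was 5.86-fold higher (1.28 to 54.4, from 11 and 2 counts) and Syt1 2.06-fold higher (1.29 to 3.34, from 56 and 29 counts). Of 5 GABAergic genes 3 were lower and 0 higher (median -1.18), with sums of 56.2 CPM in day 3 iKO and 148 CPM in day 3 Ctrl cells, and Dlx5 and Dlx6 were at 0 counts in day 3 iKO cells. Of the 6 glutamatergic markers 2 were compared, with sums of 5.73 CPM in day 3 iKO and 21.2 CPM in day 3 Ctrl cells, and Slc17a6 was at 0 counts in both. Of 11 astrocyte genes 1 was higher and 0 lower (median 0.36). Microglial markers summed to at most 8.83 CPM and endothelial markers to at most 2.12 CPM in any library.

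At day 0 the same lists differed between genotypes in another way. Of the oligodendrocyte genes 4 were lower and 0 higher in iKO cells (median -0.36), of the GABAergic genes 2 were higher and 0 lower (median 0.95), of the 13 young neuron genes 1 was higher and 0 lower, with 5 below 0 (median 0.24), and of the 11 astrocyte genes 4 were higher and 0 lower, with all 11 above 0 (median 0.93). The young neuron gene called higher was Stmn2. It reached the minimum only through its day 0 iKO level of 8.35 CPM, so its call follows from the filter. Neurod1 was at its highest in that day 0 iKO library, and the part of these lists in its level was not tested. Mitosis genes, which mark cycling cells, had 0 of 6 at 2-fold at either day, with medians of -0.14 at day 3 and -0.77 at day 0. Of 8 stem cell genes 1 was higher and 1 lower at day 3 (median -0.32), and 0 were higher and 1 lower at day 0 (median -0.25); Hes5, Pax6 and Sox2 stand in this list and in the pathway lists as well.

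**Figure D5:**
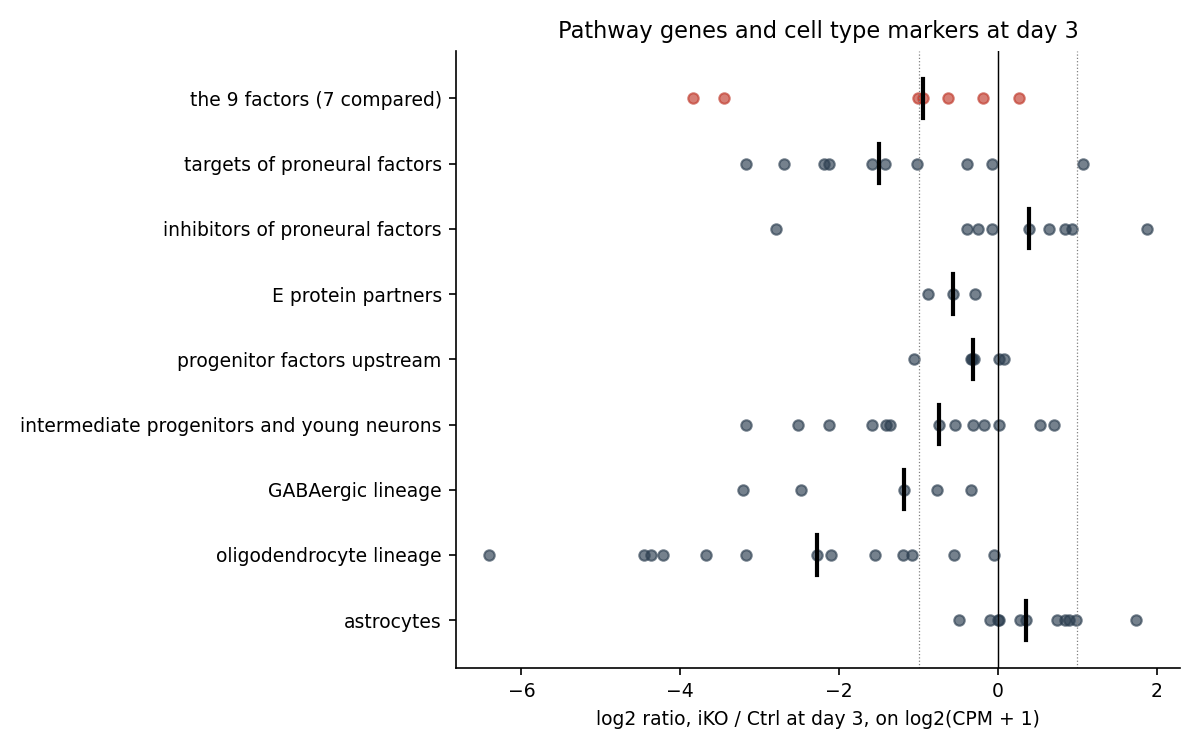
Log2 ratio of iKO to Ctrl at day 3 on the log2(CPM + 1) scale (horizontal axis) for the members, 4 pathway lists and 4 marker lists, with 1 point per compared gene, a black bar at each list's median and dotted lines at 2-fold. The medians lie at -0.94 for the 7 members with Neurod1 included, -1.50 for the targets and -2.28 for the oligodendrocyte lineage with Bmp4 and Enpp6 included, against 0.36 for astrocytes.

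The members' profiles over the 4 libraries were set against each other and against 11209 other genes whose mean reached 5 CPM, by the Euclidean distance of log2(CPM + 1) values centred on each gene's mean. Among the 6 abundant members the closest pairs were Insm1 and Sox11, at 1.03, and Myt1 and Vxn, at 1.30, with Hes6 and Sox4 also at 1.30. Neurod1 and Vxn were the farthest apart of all pairs. The 3 genes nearest to Vxn were Kit, a receptor tyrosine kinase, Plppr1 and Grik3, a kainate receptor subunit, at distances of 0.35 to 0.46. Those nearest to Myt1 were Sh3gl3, Prkg2 and Epb41l3, at 0.46 to 0.56. Kit was at 3.92 CPM in day 3 iKO and 68.6 CPM in day 3 Ctrl cells, and at 6.15 CPM in day 0 iKO and 10.8 CPM in day 0 Ctrl cells. With 4 libraries the profiles have few points, and the names describe likeness of these profiles and no more.

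For Sox11 the nearest genes were Olig2, a bHLH gene of the oligodendrocyte lineage, Tex10 and Plekhh1, each within 0.08. For Sox4 they were Lgi3, H2bc21 and Shd, at 0.13 to 0.17, of which H2bc21 belongs to a histone family with near-identical copies and is uncertain. For Insm1 they were Slc2a6, Gng3, a G protein subunit, and Syk, a tyrosine kinase, at 0.18 to 0.24. For Hes6 they were Tmf1, Tbc1d10a and Atg7, an autophagy gene, each within 0.03, and for Neurod1 they were Col12a1, a collagen gene, Rgs16 and Cav1, the caveolin gene, at 0.34 to 0.48. The profiles of Neurog2 (nearest Ap3b2, Gpr137c and Sema6c) and Eomes (nearest Otud5, Asb13 and Map6d1) are flattened by the pseudocount. That of Neurod1 is flattened too, with 0.0530 CPM in day 3 iKO, 0.199 CPM in day 3 Ctrl and 0.984 CPM in day 0 Ctrl cells.

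The authors' deposited table for day 3 lists 1774 genes, 911 above and 863 below 0 in log2 ratio of iKO to Ctrl, with 5 of the 9 members among them. In the authors' deposited table the log2 ratios were -4.09 for Vxn, -3.61 for Myt1, -3.61 for Neurog2, -1.16 for Insm1 and -1.02 for Sox4. The authors' deposited table gives FDR values of 3.37e-10 for Neurog2 and 5.45e-20 for Insm1 and lists 0 for the other 3. The authors' deposited table for day 0 lists 103 genes, 91 above and 12 below 0, and none of the 9 members. Each table sets a single library against another, and the spread between cultures does not enter these FDR values.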

How the data were processed

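Total RNA of 4 libraries, 1 per group, was sequenced with a BGI library kit, per the labels' protocols. HISAT, Bowtie2, StringTie and the mm10 build are named, without versions, per the submitters' processing notes. The sources used here do not give the counting tool, the annotation release, filters or the strand of counting. The files deposited by the authors hold, for 55122 RefSeq transcripts, an expected count and an expression value without a named unit, taken as FPKM because it scaled with the count over the transcript length. The authors' deposited tables hold log2 ratios of iKO to Ctrl and p-values adjusted as an FDR, by a method not given; 1 FDR cell of day 0 is not a number.

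Transcript counts were added up within each of 17621 genes, and the sums were rounded only for the scaling factors and the exact intervals. CPM used the unrounded sums and TMM factors of 0.962 for day 3 iKO, 1.02 for day 3 Ctrl, 1.06 for day 0 iKO and 0.966 for day 0 Ctrl (edgeR 4.0.16, R 4.3.3). Symbols came from RefSeq for 17498 gene IDs. Strands and exon numbers of the members, transcript starts and overlapping genes came from GENCODE on the same build. Log2 ratios used a pseudocount of 1 CPM, which shrinks the ratios of low genes, and were taken for 12976 genes whose mean reached 1 CPM. Printed folds are ratios of CPM without pseudocount. Their 95% intervals are exact conditional (Clopper-Pearson) intervals of the rounded counts, those of levels are exact Poisson and those of differences between days are Wald intervals (scipy 1.17.1). Since reads need not be independent molecules, all intervals cover counting error only. A count of 3 per library was taken as the floor. No test was run, for lack of replicates.

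Groups came from the sample titles. The 9 genes, the 6 pathway and 9 marker lists and the comparisons were chosen with earlier results of these data known. Named are all members, Seh1l, the 2 genes of each pathway list with the largest day 3 ratio of iKO to Ctrl in either direction (1 where only 1 was compared), and 3 nearest profiles per member; other list genes were named after their values were seen. The alternatives tried were a pseudocount of 0.1 or 5 CPM, a minimum of 0 or 5 CPM, library totals, DESeq2 1.42.0 size factors, and deposited FPKM with a pseudocount and minimum of 1. The ratio code was tested on simulated counts. Promoter words were searched on both strands. A listed gene is not reported here.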

Additional observations from a re-analysis of the deposited data

Results flagged for a closer look

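For 2 of the 9 members and 5 of 31 pathway list genes compared, the ratio of iKO to Ctrl lay on opposite sides of 1 at the 2 days, with both counting intervals clear of 1; this held for 11.3% of all 12976 compared genes. None of these differences between days was tested, since each group holds 1 library, and each is given as the day 3 log2 ratio minus the day 0 log2 ratio. Among the members, the difference was -1.28 for Sox4 and -1.17 for Insm1, both lower in iKO cells at day 3 and higher at day 0. Dcx, at -4.01, and Tubb3, at -2.89, both cytoskeletal genes of young neurons, had the same order, as did Gadd45g, at -1.05, and Myt1l, a neuronal relative of Myt1 at low counts, at -1.30. Myt1l was compared only through its day 0 iKO level, so its place here follows in part from the filter. The inhibitor gene Id3, at 1.34, had the reverse order, higher in iKO cells at day 3 and lower at day 0.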

How the results depend on the processing

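Of 28 log2 ratios of members (7 genes in 4 comparisons), all 28 kept their sign and 21 kept their side of 2-fold under every alternative that gave a value. Counted over all 7 members compared, Neurod1 included, the number higher in iKO than in Ctrl cells at day 0 was 1, and 0 with a pseudocount of 5 CPM, a minimum of 5 CPM or deposited FPKM; Neurod1 has no value under the last 2. The number lower at day 3 against day 0 in Ctrl cells was 1, and 2 with a pseudocount of 0.1 CPM. The number lower in iKO than in Ctrl cells at day 3 was 3. It was 2 with a pseudocount of 5 CPM or DESeq2 size factors, and 4 with no minimum or library totals. The number lower at day 3 against day 0 in iKO cells was 4. It was 5 with a pseudocount of 0.1 CPM or library totals, and 3 with 5 CPM as pseudocount or minimum or with deposited FPKM. The number whose genotype ratio differed by at least 1 between days was 5. It was 3 with a pseudocount of 5 CPM, 4 with a minimum of 5 CPM or deposited FPKM, and 6 with no minimum. Library totals moved the median of all genes for iKO against Ctrl at day 0 to 0.06, against -0.06 with TMM, and for day 3 against day 0 in iKO cells to -0.14, against -0.01. Deposited FPKM gave 0.04 and -0.13 for these medians. Over alternatives, the day 3 log2 ratio of iKO to Ctrl ranged from -3.99 to -3.33 for Vxn, from -3.53 to -3.23 for Myt1, from -1.08 to -0.79 for Insm1 and from -1.02 to -0.93 for Sox4. With no minimum, Neurog2 had log2 ratios of -1.48 at day 3 and 0.15 at day 0. Over all genes, 815 were higher and 620 lower in iKO at day 3, which a pseudocount of 5 CPM changed to 431 higher and 358 lower, library totals to 684 higher and 699 lower, and deposited FPKM to 469 higher and 458 lower. At day 0, 347 were higher and 43 lower, which a pseudocount of 0.1 CPM changed to 706 higher and 78 lower, and 5 CPM to 111 higher and 13 lower. Counts of 1 to 71 behind Neurog2 and Neurod1 limit those genes. No paired analysis was possible because each group holds 1 library, and leaving out a library would remove a group.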
